A study of Mus musculus with 8 samples.

Results

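The counts of 10 genes of the ATF4 stress response were followed across mouse immune cell cultures: Atf4, Atf5, Ddit3, Trib3, Asns, Chac1, Sesn2, Slc7a11, Slc3a2 and Slc7a5. Their symbols were matched to Ensembl identifiers with GENCODE mouse release M21, and all 10 were found among the 52636 genes of the count table. Of these, 9 passed the filter on low counts, and Chac1 did not. RNA came from spleen and lymph node cells of mice aged 35 to 55 days that had no disease signs yet. All cultures ran for 4 days with anti-CD3 at 1 µg/ml, which stimulates the T cell receptor, plus IL23 (20 ng/ml), TGF-β (4 ng/ml), IL6 (20 ng/ml) and IL12 (3 ng/ml). The medium of every group held non-essential amino acids and β-mercaptoethanol, a reducing agent. The TCR1640 strain is transgenic for a T cell receptor, was made on the SJL/J background and is used as a model of spontaneous autoimmune encephalomyelitis, and wild-type SJL/J mice were the other strain. The 4 groups were TCR1640 females, TCR1640 males, SJL/J females and SJL/J males, with 2 count columns each.

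Several facts of the table bear on every value below. Columns of the same group were nearly as alike as sampling noise allows (chi-square per degree of freedom 1.05 to 1.08, against 3.12 to 17.1 between groups), so they were summed and counted as 1 sample. A ratio between 2 groups therefore has n = 1 on each side, no replicate check and no p-value, and its 95% interval covers counting error only. Summed counts were 7937262 for the TCR1640 female label, 10005975 for the TCR1640 male label, 8378659 for the SJL/J female label and 7678860 for the SJL/J male label. Sex labels matched the data, since 4 Y-linked genes summed to 236 to 329 counts in male columns and 0 to 4 in female columns. The strain labels went against one measurement. A single joining segment of the T cell receptor alpha chain, Traj43, held 75.6% (exact 95% interval 71.3 to 79.4) and 79.2% (75.0 to 83.0) of joining-segment counts in the libraries labelled SJL/J female and male. The share was 5.04% (1.87 to 10.7) and 2.91% (0.950 to 6.65) in those labelled TCR1640, the label of the mice with a transgenic receptor. Strain directions are therefore given by label only. The kit was stranded and the strand setting of the counting is not given in the sources used here. Among 985 pairs of a coding gene and a noncoding feature on the opposite strand, the noncoding feature held more counts in 75.7% (exact 95% interval 72.9 to 78.4). Counts of a gene may thus include, or consist of, reads from the other strand, and levels are compared between groups and not between genes. The exception is the marker sums, which add CPM over a list and carry the same uncertainty.

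ATF4 is a transcription factor whose protein is made when phosphorylation of eIF2α slows general translation, as happens when amino acids run short, haem is lacking, the endoplasmic reticulum is overloaded or double-stranded RNA is sensed. It often pairs with C/EBP proteins on C/EBP-ATF response elements and raises genes for amino acid uptake, amino acid synthesis and tRNA charging, together with brakes on the response itself. Activated T cells raise amino acid transport as they grow, and because ATF4 is controlled largely at translation, its mRNA level does not report its activity.

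The element was searched in promoter sequences as TGATGNAA on both strands, from 250 bases before to 50 bases after each RefSeq start on GRCm38.p6. It was present in 1304 of 32851 promoters (3.97%), and 23 promoters (0.0700%) held it more than once. The promoter table had 10 promoters for 9 of the members, and 4 members held a match. These are Asns, Chac1, Slc7a11 and Trib3, shown here because they place the element beside the genes whose counts are described next. Each sequence reads 5′ to 3′ along the gene's strand, and capitals mark the element or its reverse complement. The stretches lie at chr6:7693185-7693272 (minus strand) for Asns, chr2:119351009-119351096 (plus strand) for Chac1, chr3:50443613-50443719 (minus strand) for Slc7a11 and chr2:152344011-152344086 (minus strand) for Trib3.
Asns: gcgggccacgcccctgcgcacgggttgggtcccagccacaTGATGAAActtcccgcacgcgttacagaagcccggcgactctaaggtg
Chac1: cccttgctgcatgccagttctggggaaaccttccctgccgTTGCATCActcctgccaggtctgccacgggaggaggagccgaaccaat
Slc7a11: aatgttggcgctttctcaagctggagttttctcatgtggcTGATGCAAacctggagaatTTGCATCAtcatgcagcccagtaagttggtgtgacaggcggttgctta
Trib3: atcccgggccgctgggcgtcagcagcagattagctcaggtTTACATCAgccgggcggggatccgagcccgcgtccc
In Asns the element began 23 bases before the start. In Slc7a11 it occurred once in each orientation, 66 and 47 bases before the start. In Chac1 it lay 193 bases before the start and in Trib3 14 bases after it, both in reverse. These distances are from the RefSeq starts. By the GENCODE gene positions given below, the Asns element lies inside the gene and the Trib3 element before it. A match describes letters in a window and is not evidence of binding.

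Between the strain labels, the amino acid transporter genes and Asns were lower in libraries labelled TCR1640, while the transcription factor genes Atf4, Atf5 and Ddit3 differed from the SJL/J label by at most 0.19 log2 in either sex. A gene was counted as different between 2 groups when its ratio of summed counts reached 1.5-fold and the counting interval excluded equality. In females, 0 of 9 tested members were higher and 2 were lower (Asns and Slc7a5), where 10.3% and 11.1% of all 15793 tested genes were higher and lower. In males, 1 member was higher (Trib3) and 1 lower (Asns), against 12.7% and 12.8% of all genes. The median log2 ratio of the members was −0.36 in females and −0.11 in males, and 0.01 over all genes in both. Averaged over both sexes with an additive edgeR quasi-likelihood model of the 4 summed samples, 0 members were higher and 4 lower at a Benjamini-Hochberg adjusted p under 0.05: Asns, Slc7a11, Slc3a2 and Slc7a5. Of all 17261 genes in that model, 13.3% were higher and 13.1% lower. The model has 1 residual degree of freedom, which reflects how far strain differences varied with sex and not the spread between mice. Its variance estimate was shared across genes, so a member's SE need not follow that member's own variation with sex. Slc7a5 differed by log2 −0.97 in females and −0.26 in males and had an SE of 0.148. Atf5 differed by 0.09 and 0.19 and had an SE of 0.150. A small adjusted p therefore does not show a like difference in both sexes. DESeq2 on the same 4 samples called 0 members, with 2 at an unadjusted p under 0.05, and edgeR's count fell to 2 without either the second SJL/J female column or the first SJL/J male column.

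**Figure D1:**
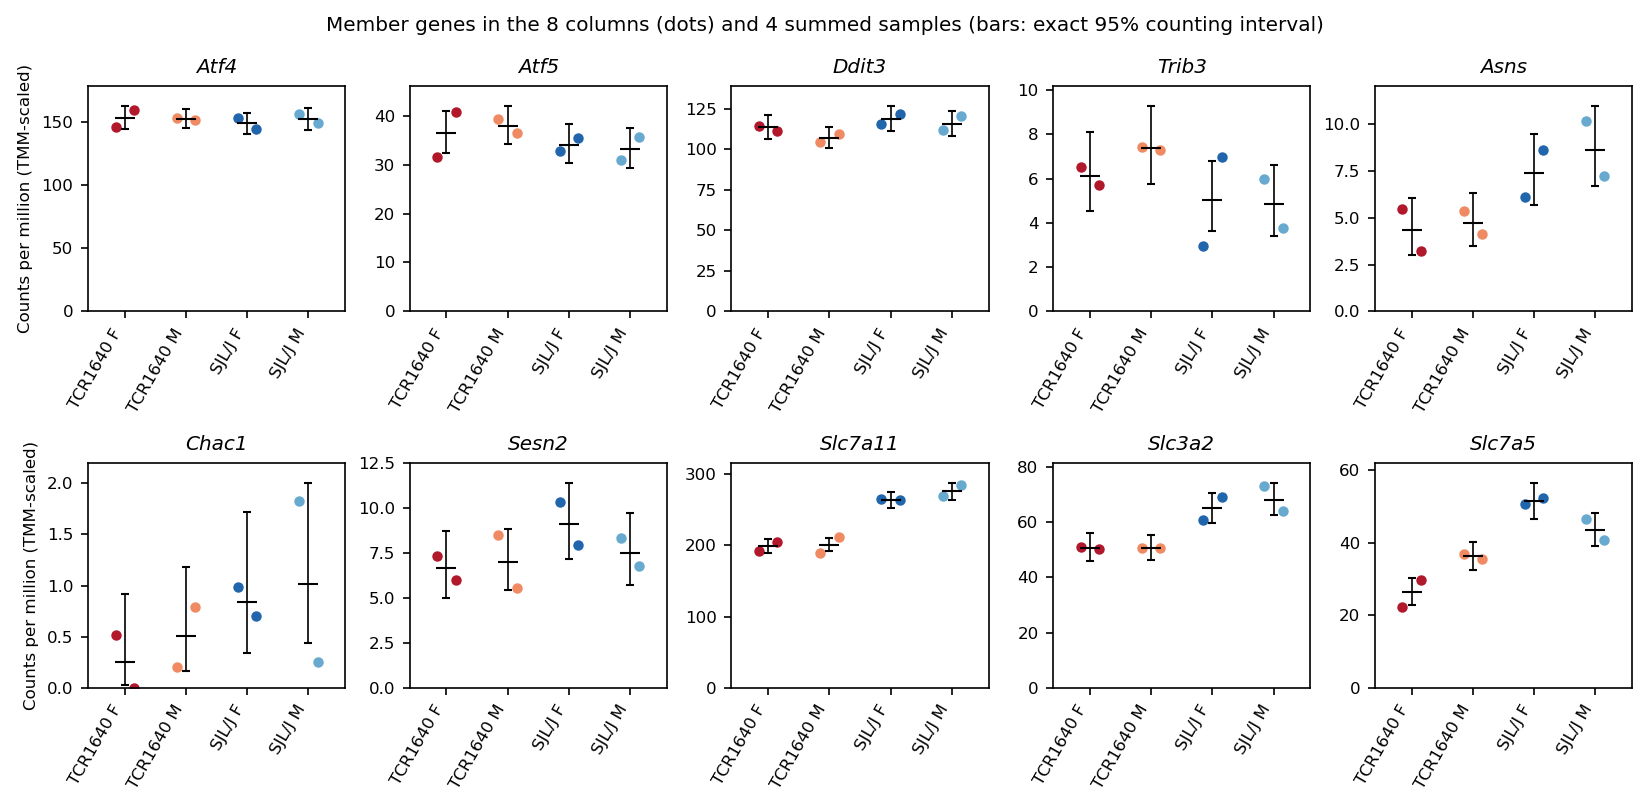
CPM on TMM-scaled library sizes (vertical axes, each from 0) for the 10 genes in the 4 labelled groups (F, female; M, male). Dots are the 8 columns, and horizontal marks with bars are the summed samples with exact 95% counting intervals. In Asns, Slc7a11, Slc3a2 and Slc7a5 all 4 columns labelled TCR1640 lie below all 4 labelled SJL/J.

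Atf4 (ENSMUSG00000042406, chromosome 15, 80255184 to 80257541 on GRCm38) encodes the central transcription factor. It had 560 and 643 counts in the TCR1640 female columns, 743 and 769 in the TCR1640 male columns, 626 and 621 in the SJL/J female columns, and 600 and 597 in the SJL/J male columns. Scaled to library size this was 154, 153, 149 and 152 CPM, counts scaled to a common library size in the same order of summed samples. The groups overlapped throughout. The log2 ratio of the TCR1640 to the SJL/J label was 0.04 (−0.07 to 0.16) in females and 0.00 (−0.11 to 0.11) in males. The averaged difference was 0.02 ± 0.12 (SE), with an edgeR adjusted p of 0.921.

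Atf5 (ENSMUSG00000038539) encodes a related factor that is also controlled by upstream reading frames and acts in mitochondrial stress. Its summed samples held 286 and 376 counts under the TCR1640 label and 286 and 262 under the SJL/J label, females first. This was 36.5 and 38.0 CPM against 34.2 and 33.3 CPM, with overlapping columns. The log2 ratio was 0.09 (−0.15 to 0.34) in females and 0.19 (−0.04 to 0.42) in males. Atf5 shares 82 exon bases with each of Nup62 and Il4i1 on the other strand, so its counts are uncertain. Nup62 differed by −0.33 and −0.31, and Il4i1 by −0.49 and 0.54, in females and males.

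Ddit3 (ENSMUSG00000025408), also known as CHOP, encodes a C/EBP-family factor associated with cell death under lasting stress. It had 889 and 1060 summed counts under the TCR1640 label and 994 and 911 under the SJL/J label. The levels were 113, 107, 119 and 116 CPM, highest in SJL/J females and lowest in TCR1640 males, and the columns overlapped between labels. The log2 ratio was −0.07 (−0.20 to 0.07) in females and −0.11 (−0.24 to 0.02) in males, with an averaged edgeR adjusted p of 0.668. Ddit3 shares 68 exon bases with Mars and 13 with Gm4189 on the other strand. Mars, the cytosolic methionyl-tRNA synthetase gene, differed by 0.01 and 0.16.

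The genes that restrain or branch from the response were counted sparsely. Trib3 (chromosome 2, 152337422 to 152344032) encodes a pseudokinase that dampens ATF4 and CHOP activity. It had 25 and 23 counts in TCR1640 females, 36 and 37 in TCR1640 males, 12 and 30 in SJL/J females, and 23 and 15 in SJL/J males. Its ratio was 1.53-fold in males (log2 0.61, interval 0.02 to 1.21) and log2 0.29 (−0.34 to 0.92) in females. The male call was lost without the first TCR1640 male column (0.57) or the second SJL/J male column (0.33), where the ratio was below 1.5-fold. It was also lost without the second TCR1640 male column (0.59), where the ratio stayed above 1.5-fold and the interval held equality. The female ratio was 1.09 without the second SJL/J female column and −0.17 without the first, so neither its size nor its sign was fixed at this depth. The averaged difference of 0.45 ± 0.28 (SE) had an edgeR adjusted p of 0.248.

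Sesn2, a sestrin that senses leucine and restrains mTORC1, had 28, 24, 41, 28, 42, 34, 32 and 27 counts in the columns of TCR1640 females, TCR1640 males, SJL/J females and SJL/J males. The log2 ratio was −0.45 (−0.99 to 0.08) in females and −0.11 (−0.63 to 0.42) in males. Both intervals held equality. Chac1, which degrades glutathione, summed to 2, 5, 7 and 8 counts in the same order of groups. Its log2 ratio of −1.71 in females had an interval from −5.02 to 0.68, so no difference was detectable at this depth.

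Asns (ENSMUSG00000029752, chromosome 6, 7675169 to 7693254) encodes asparagine synthetase, which makes asparagine from aspartate and glutamine. It had 21 and 13 counts in TCR1640 females and 26 and 21 in TCR1640 males, against 25 and 37 in SJL/J females and 39 and 29 in SJL/J males. On the CPM scale the columns ran from 3.23 to 5.47 under the TCR1640 label and from 6.14 to 10.2 under the SJL/J label, without overlap. The log2 ratio was −0.77 (−1.42 to −0.15) in females and −0.87 (−1.43 to −0.31) in males. The averaged difference was −0.82 ± 0.28 (SE), with an edgeR adjusted p of 0.0144. The female ratio was −0.48 without the second TCR1640 female column and −0.47 without the second SJL/J female column, and the male ratio was −0.58 without the first SJL/J male column. In each of these 3 cases the 1.5-fold call and the averaged call were lost.

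The 3 transporter genes form 2 heterodimeric exchangers. Slc3a2 encodes the heavy chain CD98, Slc7a11 the light chain xCT that imports cystine in exchange for glutamate, and Slc7a5 the light chain LAT1 that imports leucine and other large neutral amino acids. None of the 3 shares an exon base with a gene on the other strand. Across the 9 tested members, 4 had all 4 columns labelled TCR1640 below all 4 labelled SJL/J (17.1% of all tested genes did), 0 had them all above (17.3% of all tested genes), and 5 overlapped. The 4 were Asns and these 3 transporter genes.

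Slc7a11 (ENSMUSG00000027737, chromosome 3, 49892526 to 50443614) was the most precisely counted member. Its columns held 738 and 822 counts in TCR1640 females, 920 and 1071 in TCR1640 males, 1079 and 1128 in SJL/J females, and 1033 and 1135 in SJL/J males. Scaled, the TCR1640 columns lay between 190 and 211 CPM and the SJL/J columns between 263 and 284 CPM. The log2 ratio was −0.41 (−0.50 to −0.31) in females and −0.46 (−0.54 to −0.37) in males. The intervals excluded equality in both sexes, yet the ratios were below 1.5-fold. The averaged difference was −0.43 ± 0.12 (SE), with an edgeR adjusted p of 0.00218.

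Slc3a2 (ENSMUSG00000010095, chromosome 19, 8706882 to 8723369) had 195 and 202 counts in TCR1640 females, 245 and 257 in TCR1640 males, 248 and 296 in SJL/J females, and 280 and 256 in SJL/J males. Columns labelled TCR1640 spanned 50.1 to 50.8 CPM and those labelled SJL/J 60.9 to 73.0 CPM. The log2 ratio was −0.36 (−0.55 to −0.17) in females and −0.43 (−0.61 to −0.25) in males, again below 1.5-fold. The averaged difference was −0.39 ± 0.14 (SE), with an edgeR adjusted p of 0.0231. That call was lost without the second SJL/J female column (−0.34), without the first SJL/J male column (−0.33), and when no filter on low counts was used.

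Slc7a5 (ENSMUSG00000040010, chromosome 8, 121881150 to 121907694) was lowest in the library labelled TCR1640 female. Its columns held 86 and 120 counts in TCR1640 females, 179 and 180 in TCR1640 males, 206 and 224 in SJL/J females, and 179 and 163 in SJL/J males. The summed levels were 51.4 CPM (46.6 to 56.5) in SJL/J females, 43.5 (39.0 to 48.3) in SJL/J males, 36.2 (32.6 to 40.2) in TCR1640 males and 26.3 (22.8 to 30.1) in TCR1640 females. Each step in this order excluded equality by counting error. The TCR1640 label stood at 0.512-fold of the SJL/J label in females (log2 −0.97, interval −1.21 to −0.72), and the log2 ratio was −0.26 (−0.48 to −0.04) in males. The averaged difference was −0.60 ± 0.15 (SE), with an edgeR adjusted p of 0.000414.

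**Figure D2:**
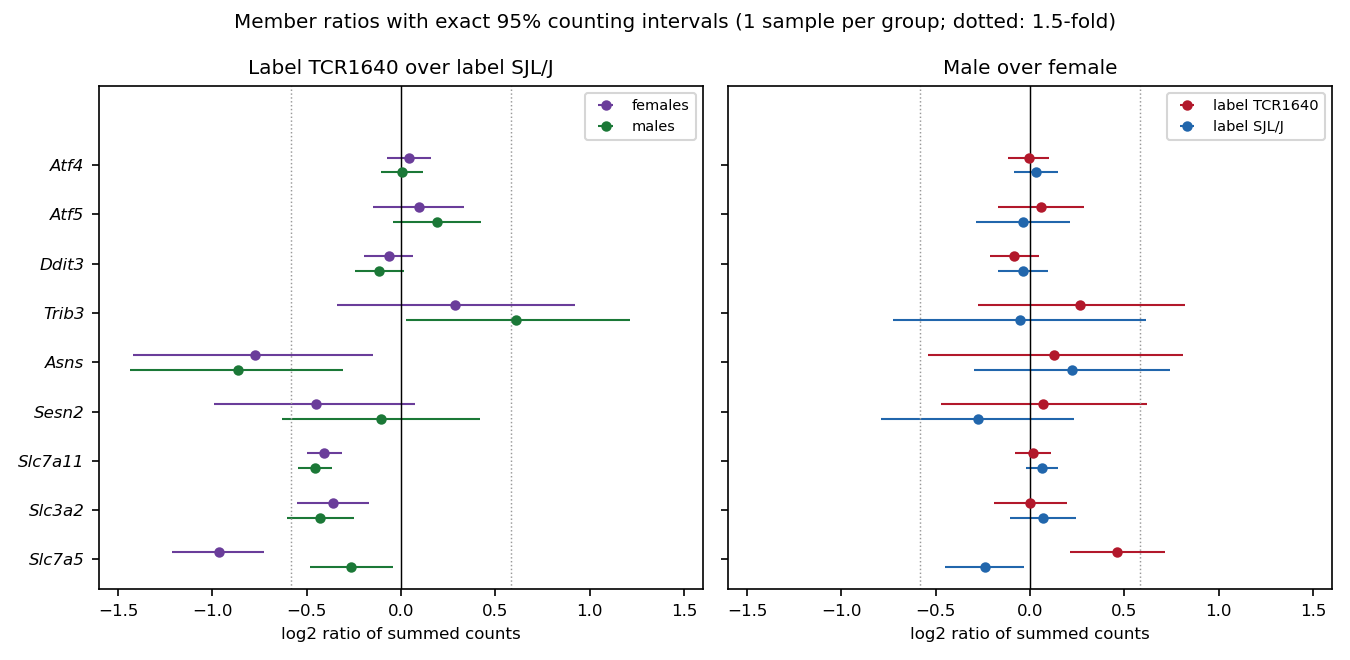
Log2 ratios of summed counts (horizontal axes) with exact 95% counting intervals for the 9 tested members; left, the TCR1640 over the SJL/J label in females and males; right, males over females under each strain label. Dotted lines mark 1.5-fold, and only Slc7a5 has sex intervals that exclude equality, in opposite directions.

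Between males and females no member passed the call rule. Under the TCR1640 label 0 of 9 members were called higher or lower in males, where 2.92% and 4.94% of all genes were. Under the SJL/J label 0 were called as well, against 3.05% and 3.86%. The additive edgeR model called 0 members higher (0.127% of all genes) and 0 lower (0.811%), with 0 at an unadjusted p under 0.05, and DESeq2 gave 0 and 0. Adjusted p-values in the edgeR model ran from 0.911 to 0.994. At these shares, under 1 call among 9 genes would match the background, so the counts of 0 do not set the members apart. Slc7a5 was 1.38-fold higher in males under the TCR1640 label (log2 0.46, interval 0.21 to 0.72) and lower in males under the SJL/J label (−0.24, interval −0.45 to −0.03). Without the second TCR1640 female column the first value was 0.74 and passed 1.5-fold. For Slc7a11 the sex ratios were 0.01 and 0.06, for Slc3a2 0.00 and 0.07, and for Atf4 −0.01 and 0.03 under the TCR1640 and SJL/J labels. The sparsely counted members had wide intervals, from −0.28 to 0.82 and −0.73 to 0.61 for Trib3, −0.54 to 0.81 and −0.30 to 0.74 for Asns, and −0.47 to 0.62 and −0.79 to 0.23 for Sesn2.

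Other genes of the pathway were read from lists of known parts of the response. In each list the counts below come from the additive edgeR model for the strain label averaged over sexes, in which 13.3% of all genes were higher and 13.1% lower and the median log2 difference was 0.01. Upstream, among 8 genes for eIF2α, its kinases and its phosphatase subunits, 1 was higher and 2 lower under the TCR1640 label (median −0.09). Ppp1r15a, or GADD34, the stress-induced phosphatase subunit that ends the response, rose by 0.39 ± 0.13 (SE, adjusted p = 0.0129), with 853 and 1194 summed counts against 773 and 647. Eif2s1, which encodes eIF2α itself, fell by 0.42 (adjusted p = 0.0256). Eif2ak1, the haem-regulated kinase, fell by 0.37 (adjusted p = 0.0107), but it shares 659 exon bases with genes on the other strand. DESeq2 called 0 of the 8, with 2 at an unadjusted p under 0.05.

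Among 19 tested genes of a list of further ATF4 targets, 2 were higher and 3 lower (median 0.12), and DESeq2 called 4. With genes overlapping another strand's exons left out, 0 were higher and 3 lower of 12, and the median was −0.12, so the sign of the median depended on that choice. Eif4ebp1, which encodes the translation repressor 4E-BP1, fell by 0.89 ± 0.16 (SE, adjusted p = 1.85e-07), from 331 and 329 summed counts under the SJL/J label to 154 and 240 under the TCR1640 label. Ero1l, an oxidase of the endoplasmic reticulum, fell by 0.72 (adjusted p = 1.01e-05). Txnip, an inhibitor of thioredoxin and of glucose uptake, was higher by 1.34 ± 0.13 (SE, adjusted p = 5.44e-23) but shares 606 exon bases with the other strand. The other called genes, named after their values were seen, were the sparsely counted Nupr1 and Aldh1l2. Nupr1 fell by 2.40 (adjusted p = 8.81e-07). Aldh1l2 rose by 0.83 (adjusted p = 0.0303) but shares 1056 exon bases with the other strand.

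Genes for using and charging amino acids leaned the same way as the transporters. Of 20 cytosolic aminoacyl-tRNA synthetase genes, 0 were higher and 8 lower (median −0.30), and 17 had a ratio below 0. Tars, for threonine, fell by 0.68 ± 0.15 (SE, adjusted p = 5.36e-05), Rars, for arginine, by 0.65 (adjusted p = 0.00172) and Iars, for isoleucine, by 0.59 (adjusted p = 0.00224). DESeq2 called 1 of the 20. Among 9 genes for serine, one-carbon and proline synthesis, 0 were higher and 3 lower (median −0.37), and DESeq2 called 1. Mthfd1l and Mthfd2, enzymes of mitochondrial folate metabolism, fell by 0.43 (adjusted p = 0.0112) and 0.40 (adjusted p = 0.0429). Psat1, the other lower gene, named after its values were seen, fell by 1.14 (adjusted p = 2.57e-07). It had 46 and 112 summed counts against 138 and 164. Phgdh, the first enzyme of serine synthesis, differed by −0.37 with an adjusted p of 0.192.

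Of 15 tested genes for other amino acid transporters, 0 were higher and 4 lower (median −0.22), and DESeq2 called 2. Slc1a5, the glutamine carrier ASCT2, fell by 0.64 ± 0.14 (SE, adjusted p = 9.22e-05), with 270 and 375 summed counts against 483 and 435. Slc7a1, the arginine and lysine carrier CAT1, fell by 0.69 (adjusted p = 0.000605). The other lower genes, named after their values were seen, were the sparsely counted Slc7a8 and Slc43a1. They fell by 2.60 (adjusted p = 1.78e-07) and 1.36 (adjusted p = 0.000477). Slc38a2, the neutral amino acid carrier SNAT2 that ATF4 also induces, differed by 0.32 with an adjusted p of 0.0888. The transporter genes therefore did not all lie on one side.

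Neighbouring stress pathways were read beside these lists. Of 17 genes for endoplasmic reticulum chaperones and XBP1 or ATF6 targets, 0 were higher and 11 lower (median −0.42), and DESeq2 called 5. Creld2 fell by 1.03 ± 0.19 (SE, adjusted p = 1.49e-06), and Hsp90b1 and Pdia6, which both overlap exons on the other strand, fell by 0.99 (adjusted p = 5.63e-16) and 0.93 (adjusted p = 6.85e-10). Of 8 tested genes of a list holding NRF2, the oxidative stress factor that also induces Slc7a11, and its targets, 0 were higher and 5 lower (median −0.72), and DESeq2 called 2. Nfe2l2, the gene for NRF2 itself, named after its values were seen, differed by 0.39 with an adjusted p of 0.11. Txnrd1, a thioredoxin reductase, fell by 0.94 ± 0.15 (SE, adjusted p = 2.07e-08) and Gsr, glutathione reductase, by 0.62 (adjusted p = 0.00311). G6pdx, which also overlaps exons on the other strand, differed by −0.40 (adjusted p = 0.0653).

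Among 10 genes of the p53 pathway, 2 were higher and 2 lower (median 0.02), and DESeq2 called 2. Trp53inp1 rose by 0.87 (adjusted p = 3.72e-07), while Cdkn1a, the cell-cycle inhibitor p21, fell by 0.85 (adjusted p = 5.4e-07) and Trp53 by 0.53 (adjusted p = 0.00924). Of 14 genes for mTORC1 and amino acid sensing, 4 were higher and 0 lower (median 0.17), and DESeq2 called 1. Flcn, a regulator of the lysosomal Rag GTPases, rose by 0.80 (adjusted p = 0.000316), Sesn3, a sestrin, by 0.77 (adjusted p = 3.49e-07) and Castor1, an arginine sensor, by 0.57 (adjusted p = 0.0169). Castor1 differed by 0.11 (−0.31 to 0.53) in females and 0.99 (0.61 to 1.37) in males.

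**Figure D3:**
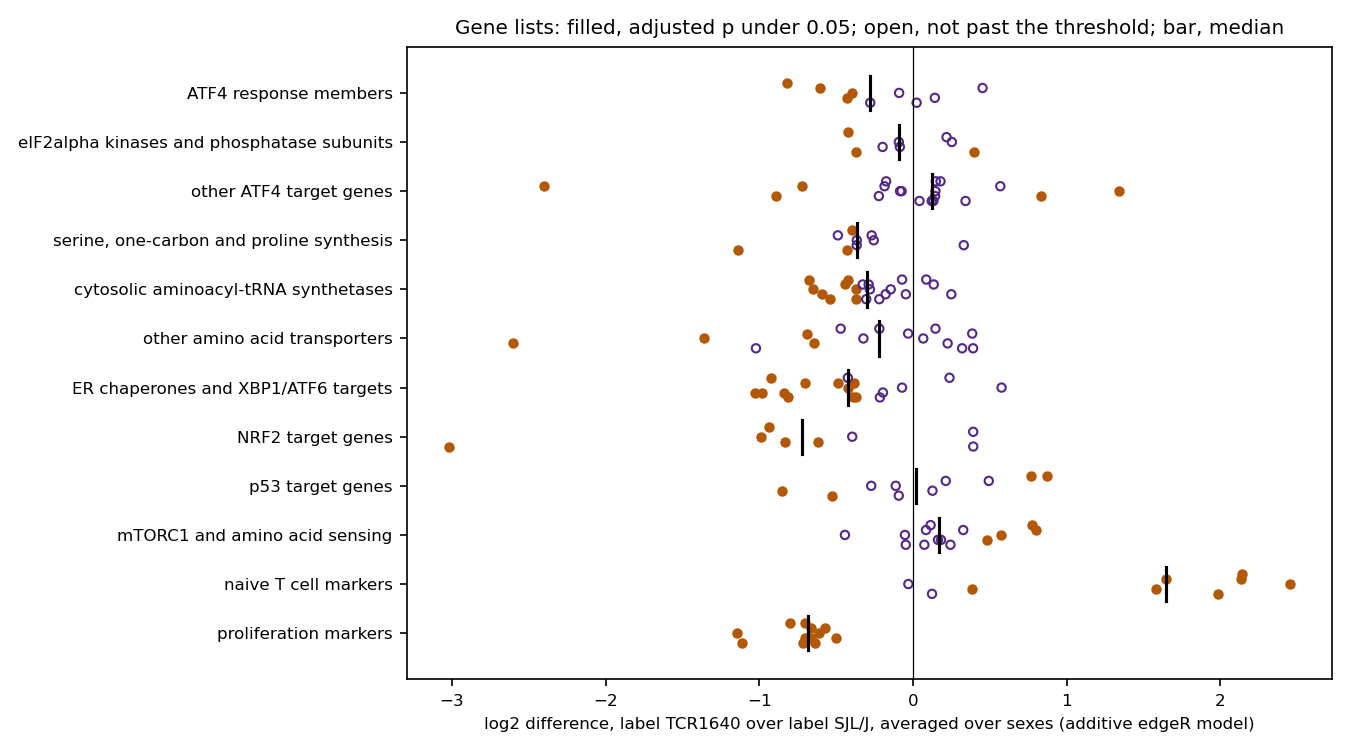
Log2 difference of the TCR1640 over the SJL/J label averaged over sexes (horizontal axis) for each tested gene of 12 lists; filled points passed an adjusted p of 0.05 in the additive edgeR model, open points did not, and bars are medians. Medians lie below 0 for the members and the eIF2α, serine, synthetase, other transporter, chaperone, NRF2 and proliferation (−0.68) lists. They lie above 0 for the other ATF4 target, p53, mTORC1 and naive T cell (1.64) lists.

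RNA of cell type markers also differed between the strain labels, and in bulk RNA fewer cells of a type and less RNA per cell cannot be told apart. Counts of markers called come from the same additive edgeR model. Naive T cell markers, which fall as T cells activate, summed to 1859 and 1908 CPM under the TCR1640 label and 943 and 929 under the SJL/J label, with 7 of 9 higher and 0 lower. Proliferation markers summed to 690 and 736 CPM against 1087 and 1125, with 0 of 12 higher and 12 lower. CD8 T cell markers summed to 535 and 582 CPM against 132 and 170, with 5 of 6 tested higher, 0 lower and Gzmk at 0 in all 4 groups. All 9 defining T cell markers were counted in every group and summed to 1635 and 1761 CPM against 1450 and 1586, with 3 higher and 2 lower. Cd3e and Cd3g, of the receptor complex, rose by 0.69 (adjusted p = 5.82e-07) and 0.54 (adjusted p = 5.28e-05), and Cd3e overlaps exons on the other strand. Cd4, the helper T cell coreceptor, fell by 0.52 (adjusted p = 0.000188). The other called genes of that list, named after their values were seen, were Cd3d, which rose by 0.40 (adjusted p = 0.0113), and Trac, which fell by 0.33 (adjusted p = 0.0325).

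Markers of other blood cells were mostly lower under the TCR1640 label. Genes at or near 0 in both TCR1640 groups, such as S100a8, Elane and Ppbp, passed the filter on low counts only through the SJL/J groups. Such genes could only be called lower, so the counts of lower markers below are partly set by the filter. Neutrophil markers summed to 16.5 and 11.6 CPM against 65.5 and 164, with 0 of 8 tested higher, 7 lower, and S100a8 and Elane at 0 in both TCR1640 groups. Platelet and erythroid markers summed to 48.1 and 45.5 CPM against 188 and 317, with 0 of 11 higher, 8 lower and Ppbp at 0 in both TCR1640 groups. The 3 tested genes not called were Hba-a1 (−0.06), Hbb-bs (−0.31) and Alas2 (0.14), so these markers did not all move alike. Hba-a1, named after its values were seen, differed by 1.03 (0.43 to 1.66) in females and −0.82 (−1.24 to −0.40) in males. Mast cell and basophil markers summed to 65.3 and 70.6 CPM against 99.1 and 122, but these sums hold opposite moves, with 1 of 8 tested higher, 7 lower and a median of −3.08. The higher one was Kit, a receptor of mast cells and progenitors, with 380 and 512 summed counts against 128 and 137, while Mcpt8, a basophil protease named after its values were seen, had 6 and 1 against 187 and 250. Monocyte and macrophage markers summed to 174 and 166 CPM against 182 and 184, with 0 of 5 tested higher and 2 lower. Csf1r, which overlaps exons on the other strand, held most of those counts (1008 and 1316 against 997 and 894), whereas Ccr2 fell by 0.85 (adjusted p = 1.48e-07). Lyz2, the lysozyme of myeloid cells and the other lower gene, named after its values were seen, had 3 and 2 counts against 38 and 61. B cell markers summed to 53.9 and 53.8 CPM against 34.1 and 41.1, with 3 of 8 tested higher and 1 lower. DESeq2 called 6 naive T cell, 4 CD8 T cell, 6 proliferation and 3 defining T cell markers. It also called 3 neutrophil, 5 platelet and erythroid, 7 mast cell and basophil, 2 monocyte and macrophage and 1 of the B cell markers. The part of these markers in the lower transporter, Asns, synthetase and chaperone counts was not tested. Between the sexes under the SJL/J label, 7 of 8 tested neutrophil markers and 7 of 11 platelet and erythroid markers were higher in males by the 1.5-fold rule. Their part in the member values of that comparison, such as the −0.24 of Slc7a5, was not tested.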

How the data were processed

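RNA was sequenced from 8 libraries. The authors deposited whole-number read counts per Ensembl gene, not normalized. Demultiplexing with bcl2fastq 2.17, the aligner Bowtie2, the counter HTSeq and the genome build mm10 are listed in the submitters' processing notes. Neither the annotation release nor the counting's strand setting is stated there. A stranded KAPA kit was used on 500 ng of RNA, per the labels' protocols. Nothing in the labels says whether the 2 columns of a group came from separate mice.

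Groups came from the sample titles. Column totals ran from 3765291 to 5116467 counts. Symbols, positions and strands came from GENCODE M21, which lacks 147 identifiers of the table. Columns of a group were summed after a chi-square check over genes with at least 20 counts, which left out Gm43333. Ratios used TMM-scaled library sizes from edgeR 4.0.16 (R 4.3.3) over 15793 genes kept by filterByExpr. Exact 95% intervals cover counting error only. Reads without molecular identifiers are not independent molecules, so the intervals may be too narrow even for that error. The additive quasi-likelihood model covered 17261 genes (common coefficient of variation 9.80%), and SE values were obtained by dividing the log2 difference by the root of F. A gene could pass the filter through the libraries of a single strain label, and could then be called only lower under the other. DESeq2 1.42.0 was an alternative. The scripts were tested on simulated data. Gene by gene, deviations of same-numbered columns were nearly uncorrelated (r from −0.00168 to 0.0312 over 6 pairs of groups and 10363 genes). This check cannot decide whether the numbers pair samples, because chi-square per degree of freedom inside groups was only 1.05 to 1.08. Column 2 had the larger total in every group. Totals were 4055369 against 3881893 (TCR1640 females), 5116467 against 4889508 (TCR1640 males), 4281592 against 4097067 (SJL/J females) and 3913569 against 3765291 (SJL/J males). The reason was not tested.

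Beside the members, at most 3 genes per list are named, those with the largest averaged strain difference among genes with at least 50 summed counts in every group. The members and lists were chosen with earlier results of these data known. Promoter sequences are from RefSeq on GRCm38.p6, and the table had none for Slc7a5.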

Additional observations from a re-analysis of the deposited data

Results flagged for a closer look

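The sex difference of Slc7a5 differed between the strain labels. It was 0.46 on the log2 scale under the TCR1640 label and −0.24 under the SJL/J label, males over females, a difference of 0.70 between them (95% interval 0.38 to 1.03, counting error only). Both columns of each male and female pair moved in these directions: the TCR1640 columns stood at 22.4 and 29.8 CPM in females and 36.9 and 35.5 in males, and the SJL/J columns at 50.6 and 52.2 in females and 46.6 and 40.8 in males. With 1 sample per group the difference was not tested against spread between mice. For the 8 other tested members the same interval held 0.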

How the results depend on the processing

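Called genes by 1.5-fold numbered 3379 and 4017 for the strain labels in females and males and 1241 and 1091 for sex under the TCR1640 and SJL/J labels. A 2-fold threshold gave 1520, 1859, 435 and 372, and 0 lower members in females and 0 higher and 0 lower in males. A mean log2 CPM of at least 3 gave 1922, 2358, 503 and 406, with 1 lower member in females and 0 higher and 0 lower in males. An edgeR fit of all 8 columns, whose spread is that between columns of a group, gave 5690, 6755, 2562 and 1782, with 4 lower members in females, 4 lower and 0 higher in males and 1 higher in TCR1640 males (Slc7a5). With the replicate number as a block it gave 5746, 6818, 2657 and 1894, and the same member counts of 4, 4, 0 and 1. DESeq2 on 8 columns gave 2 lower and 0 higher members in males and 579 genes for sex under the SJL/J label. For the averages, 4553 strain and 162 sex genes became 7821 and 2759 in the 8-column edgeR fit, 7857 and 2875 with the block, and 1410 and 7 with DESeq2 on 4 samples, which called 0 lower members. Leaving out 1 column at a time, genes for sex ranged from 8 to 148, averaged lower members from 2 to 4, lower members in females from 1 to 2, and the other member counts (higher in females, higher or lower in males, higher in TCR1640 males) from 0 to 1. The causes were not tested.

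RLE or upper-quartile factors, or TMM from genes without opposite-strand overlap, left 4 averaged lower members. The main limits are 1 sample per group, strain labels that the receptor segments go against, an unknown strand setting, and no more than 76 summed counts in any group for Trib3, Asns, Sesn2 and Chac1.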
